A study of Rattus norvegicus with 12 samples.

Results

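Skeletal muscle genes were followed in rat knee articular cartilage after surgery that induces osteoarthritis (OA) and after sham surgery. They are 39 genes for the proteins of the sarcomere, for the calcium handling of the muscle fibre and for its energy and oxygen supply. A probe set was used where the annotation of the array gave 1 of these 39 genes as its only symbol, and for each gene the probe set with the highest mean over the 12 arrays was taken. All 39 genes were found, among 14218 genes with a symbol. Mylpf stands on the array under its other name Myl11. The 12 arrays, 1-colour Affymetrix arrays hybridized with total RNA, fell into OA at 8 weeks, sham at 8 weeks, OA at 2 weeks and sham at 2 weeks, with 3 arrays per group. All values below are the deposited log2 levels, given in the order of replicates 1, 2 and 3, which have no order in time or severity. The strain, sex and age of the rats and the number of animals behind an array are not given in the sources used here. No label says that replicates came from separate animals, so p-values measure the spread between these samples, which may be technical. The files hold no call of detection, and log2 4 served as the level above which a probe set was counted as measured.

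A muscle fibre shortens when myosin heads of the thick filament pull on the actin of the thin filament, inside sarcomeres that end at Z-discs. A nerve impulse opens the voltage sensor of the fibre membrane, the ryanodine receptor lets calcium out of the sarcoplasmic reticulum, troponin on the thin filament binds it, and the pump SERCA returns it to the store. Fast and slow fibres build this machinery from different isoforms, and articular cartilage, a tissue of chondrocytes in matrix, holds no muscle fibres. Genes of the muscle fibre are known to be switched on by the MyoD family, which binds E-boxes, by MEF2 factors and by serum response factor, which binds the CArG box.

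Start regions of 4 members are shown, 3 of genes with a wide range over the arrays and 1 of a slow fibre gene that stayed dark. Each window reaches from 250 bases before to 50 bases after a transcript start, as RefSeq's table for GRCr8 gives it. That start is the outer end of the annotated gene in 18 of the 35 member windows and lies inside the gene in 17. Myh4, a fast fibre myosin heavy chain, has its window at chr10:52421898-52422197 on the plus strand. Acta1, skeletal muscle actin, lies at chr19:68784145-68784444 on the minus strand, and for Myh4 and Acta1 the start is the end of the gene. Ckm, muscle creatine kinase, lies at chr1:88189211-88189510 on the plus strand, with its start 79 bases inside the gene. Myh7, the slow fibre partner of Myh4, lies at chr15:32438145-32438444 on the minus strand, with its start 1657 bases inside the gene. Capitals mark matches to the E-box CAGCTG, the MEF2 motif and the CArG box, which do not overlap in these windows.
Myh4: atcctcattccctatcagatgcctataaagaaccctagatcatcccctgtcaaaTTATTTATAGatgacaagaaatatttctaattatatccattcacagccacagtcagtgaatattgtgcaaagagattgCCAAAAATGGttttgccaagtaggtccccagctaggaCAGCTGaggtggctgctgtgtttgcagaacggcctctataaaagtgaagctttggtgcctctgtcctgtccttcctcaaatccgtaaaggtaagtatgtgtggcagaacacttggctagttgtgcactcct
Acta1: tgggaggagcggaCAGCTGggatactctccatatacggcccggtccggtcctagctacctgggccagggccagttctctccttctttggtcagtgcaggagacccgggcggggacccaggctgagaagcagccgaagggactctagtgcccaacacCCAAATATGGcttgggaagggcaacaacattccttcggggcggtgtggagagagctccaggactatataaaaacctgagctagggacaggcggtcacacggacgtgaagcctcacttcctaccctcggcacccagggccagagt
Ckm: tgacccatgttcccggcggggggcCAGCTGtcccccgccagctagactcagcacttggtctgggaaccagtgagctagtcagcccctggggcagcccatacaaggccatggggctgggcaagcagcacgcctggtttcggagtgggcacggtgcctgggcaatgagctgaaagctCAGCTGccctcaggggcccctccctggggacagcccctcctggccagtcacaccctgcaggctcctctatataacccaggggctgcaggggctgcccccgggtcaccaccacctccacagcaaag
Myh7: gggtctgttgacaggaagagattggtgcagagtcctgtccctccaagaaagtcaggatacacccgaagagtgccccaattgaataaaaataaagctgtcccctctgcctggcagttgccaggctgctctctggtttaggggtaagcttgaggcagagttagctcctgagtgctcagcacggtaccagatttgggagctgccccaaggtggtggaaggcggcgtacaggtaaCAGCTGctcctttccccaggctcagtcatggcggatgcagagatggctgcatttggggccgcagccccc

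Windows were found for 34 of the 39 members (35 windows, as Myl1 has 2), and both strands were searched. CAGCTG occurred in 13 of the 35 windows (37.1%), against 15.1% of all 33469 windows of the same length. The MEF2 motif occurred in 7 member windows (20.0%), against 3.29% of all windows, and the CArG box in 4 (11.4%), against 1.64%. Among the members, 4 of 14 fast fibre windows and 2 of 5 slow fibre windows held CAGCTG, and 4 of 14 against 0 of 5 held the MEF2 motif. A match describes the letters of the window and not a bound site or a cause.

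All 10 measured cartilage markers, among them Col2a1 and Acan, lay above log2 4 on all 12 arrays, and their mean level per array ranged from 13.9 to 14.5. At 8 weeks 1 of the 10, Col9a1, was lower in OA (-0.48 ± 0.10, adjusted p = 0.0296). Between 48.2% and 49.8% of all probe sets of an array lay above log2 4. OA 8 weeks replicate 1 stood apart from the other arrays in its control probe sets. Its 3-prime minus 5-prime difference for Gapdh was 0.885, where the other 11 arrays had 1.24 to 1.47. For actin this difference was 5.38, against 7.72 to 8.66 elsewhere, and the hybridization controls averaged 9.95, against 10.7 to 11.5. At 8 weeks lower levels in OA were found for part of the macrophage and bone markers. Macrophage markers had array means of 5.53, 5.57 and 5.48 in OA against 6.66, 8.90 and 9.41 in sham over 13 measured markers. In limma, 4 of the 12 macrophage markers tested were lower (median -2.59). Osteoclast and osteoblast markers, 6 of 9 called lower (median -2.22), had array means of 8.61, 9.11 and 9.50 in OA against 10.85, 10.64 and 10.94 in sham over 11 measured markers. The 4 endothelial markers tested had a median of -1.76 with 0 called. Array means over 7 measured endothelial markers were 4.24, 3.69 and 3.47 in OA against 4.25, 5.41 and 4.87 in sham. Gfap, a glial gene, was lower (-4.32 ± 0.47, adjusted p = 0.00239), the only one called of 3 nerve and Schwann cell markers. Of 5 tendon and synovium markers 1 was called, Fap (-0.96 ± 0.11, adjusted p = 0.00292). Of 2 adipocyte markers tested 0 were called, with Fabp4 at 2.87 ± 0.84 (adjusted p = 0.0954). The part of these control and marker values in the results on muscle genes was not tested.

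Muscle gene levels were high on some arrays and near the floor on others, and at 8 weeks they varied more between arrays of 1 group than most genes did. Of the 39 genes, 33 had their highest level in OA 8 weeks replicate 1. Of all kept probe sets, 49.5% were higher in this array than in OA 8 weeks replicate 2 and 45.8% than in sham 8 weeks replicate 1. The number of members above log2 4 was 34, 29 and 26 in OA against 28, 13 and 21 in sham at 8 weeks. At 2 weeks it was 19, 14 and 12 in OA against 13, 15 and 14 in sham. Thus 9 members were above log2 4 on all 12 arrays, 5 on none and 6 on only 1 or 2 arrays. The filter of the test, log2 above 4 on at least 3 arrays, was passed by 28 members and missed by 11. In a tissue sample, fewer cells of a type and less RNA per cell cannot be told apart.

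The 8-week arrays fell into 1 order for most of the 28 genes that passed the filter. OA replicate 1 was above OA replicate 2 for 27 of them, and OA replicate 2 was above sham replicate 1 for 24. Sham replicate 1 was in turn above OA replicate 3 for 25 and above sham replicate 3 for all 28 of these genes. OA replicate 3 was above sham replicate 3 for 23, and sham replicate 3 was above sham replicate 2 for 23. Over all 15934 probe sets kept by the filter, the share higher in OA replicate 3 than in sham replicate 1 was 44.9%, and that higher in sham replicate 1 than in sham replicate 3 was 52.8%. A sham array therefore lay between the OA arrays. The median SD of the 28 genes at 8 weeks was 2.75 in OA and 2.09 in sham, against 0.185 and 0.159 over all kept probe sets. At 2 weeks it was 0.55 in OA and 0.11 in sham, against 0.18 and 0.158. Of the 28 genes, 26 in OA and 19 in sham at 8 weeks had an SD above the 95th percentile of all kept probe sets. At 2 weeks 12 in OA and 6 in sham did.

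**Figure D1:**
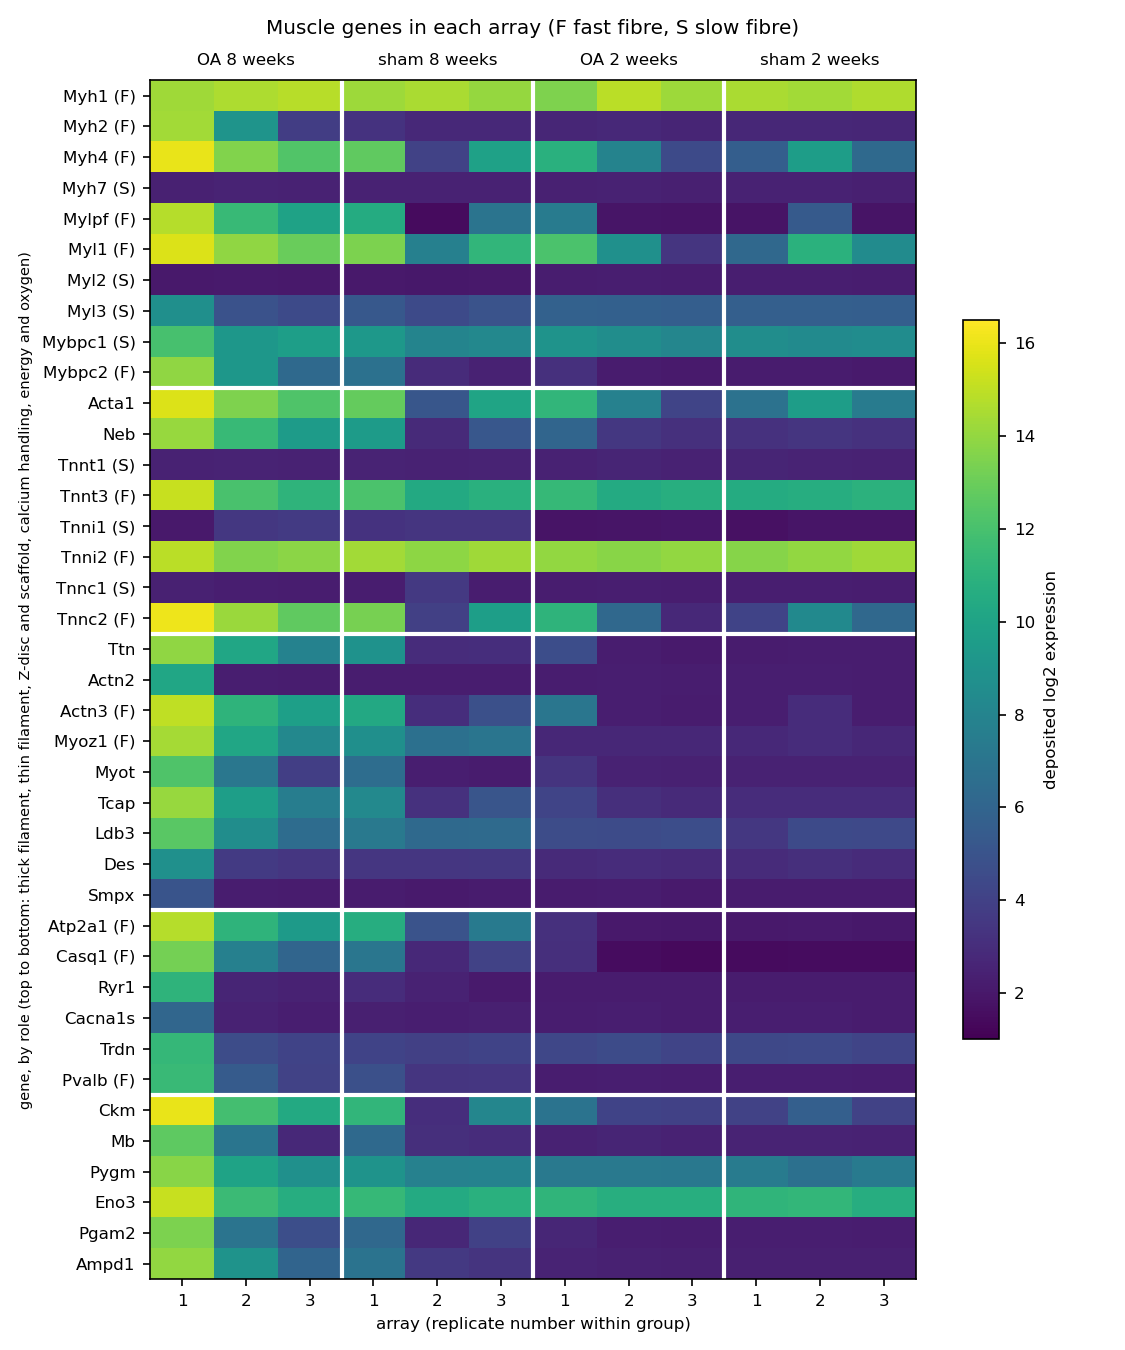
Deposited log2 level (colour) of the 39 muscle genes (rows, by role, F fast fibre, S slow fibre) on each of the 12 arrays (columns, 3 per group, numbered by replicate). OA 8 weeks replicate 1 is the brightest column for 33 genes, sham 8 weeks replicate 1 lies between OA 8 weeks replicates 2 and 3 for most genes that passed the filter, and most slow fibre genes stay dark on every array.

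At 8 weeks the mean was higher in OA than in sham for 36 of the 39 genes, against 21515 of 31042 probe sets without controls. How many genes passed the test depended on whether arrays were paired by replicate number. Of the 28 genes tested with limma, 0 were called at an adjusted p under 0.05, where 3.46% of all kept probe sets were called in either direction and 1.51% were called higher. The median difference of the 28 genes was 4.08 on the log2 scale, against 0.01 over all kept probe sets. A difference of at least 1 was seen for 26 of the 28, against 401 of 15934 kept probe sets. Some of the 28, such as Mybpc2 and Pvalb, passed the filter only through their high OA arrays of 8 weeks, which favours large differences. Over all 39 members, filtered or not, the median was 3.13. At an unadjusted p under 0.05, 16 of the 28 were higher in OA, against 9.92% of all kept probe sets. All 3 OA arrays lay above all 3 sham arrays for Neb, the only one of the 28 genes of which this held, against 12.3% of all kept probe sets. Of the 50 probe sets with the largest positive difference, 19 were members and only 6 of the 50 were called. Without OA 8 weeks replicate 1, the median was 2.04 over the 28 genes and 0.92 over all 39. Of the 28, 0 were then called with limma, against 2.53% of all kept probe sets, and the smallest adjusted p was 0.158. Without sham 8 weeks replicate 1, 6 genes were called higher in OA (Neb, Ttn, Mybpc2, Atp2a1, Actn3 and Tcap). Without OA 8 weeks replicate 3, 3 were called higher (Mybpc2, Myoz1 and Ampd1). For the fits without sham replicate 1 or OA replicate 3 no share of all kept probe sets is given, so their counts have no background. The model takes 1 spread per probe set from all 4 groups, so its standard errors for these genes tend to be too small at 8 weeks and too large at 2 weeks.

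By correlations in these same data, OA and sham arrays of the same number deviated together at 2 weeks, and only weakly at 8 weeks. With these pairs as a block within each time, 10 of the 28 genes were higher in OA at 8 weeks and 0 lower. In this paired limma fit 6.51% of all kept probe sets were called in either direction and 3.08% higher. It too takes 1 spread per probe set from both times, for Mybpc2 a standard error of 0.61 at each. For genes that were flat at 2 weeks, its standard errors and p-values therefore tend to be too small at 8 weeks. The 10 genes were Mybpc2 (adjusted p = 0.0106), Ttn (adjusted p = 0.0131), Ampd1 (adjusted p = 0.0234), Tcap (adjusted p = 0.026), Neb (adjusted p = 0.029), Atp2a1 (adjusted p = 0.0311), Myot (adjusted p = 0.032), Mybpc1 (adjusted p = 0.0337), Casq1 (adjusted p = 0.0346) and Actn3 (0.0439), and adjusted p-values named as paired below come from this fit. The OA array was above the sham array of its number in all 3 pairs for 23 of the 28 genes, against 22% of all kept probe sets. The labels do not say what a number stands for. The correlations of same-numbered arrays at 8 weeks were 0.239, 0.237 and 0.119, and without the muscle genes 0.175, 0.233 and 0.089. OA replicate 3 correlated with sham replicate 2 at 0.142, above its own pair, and without the muscle genes at 0.053. The pairing of the number 3 arrays at 8 weeks is therefore uncertain. With both number 1 arrays of 8 weeks left out of the paired fit, 6 genes were called higher, with no share of all kept probe sets given.

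**Figure D2:**
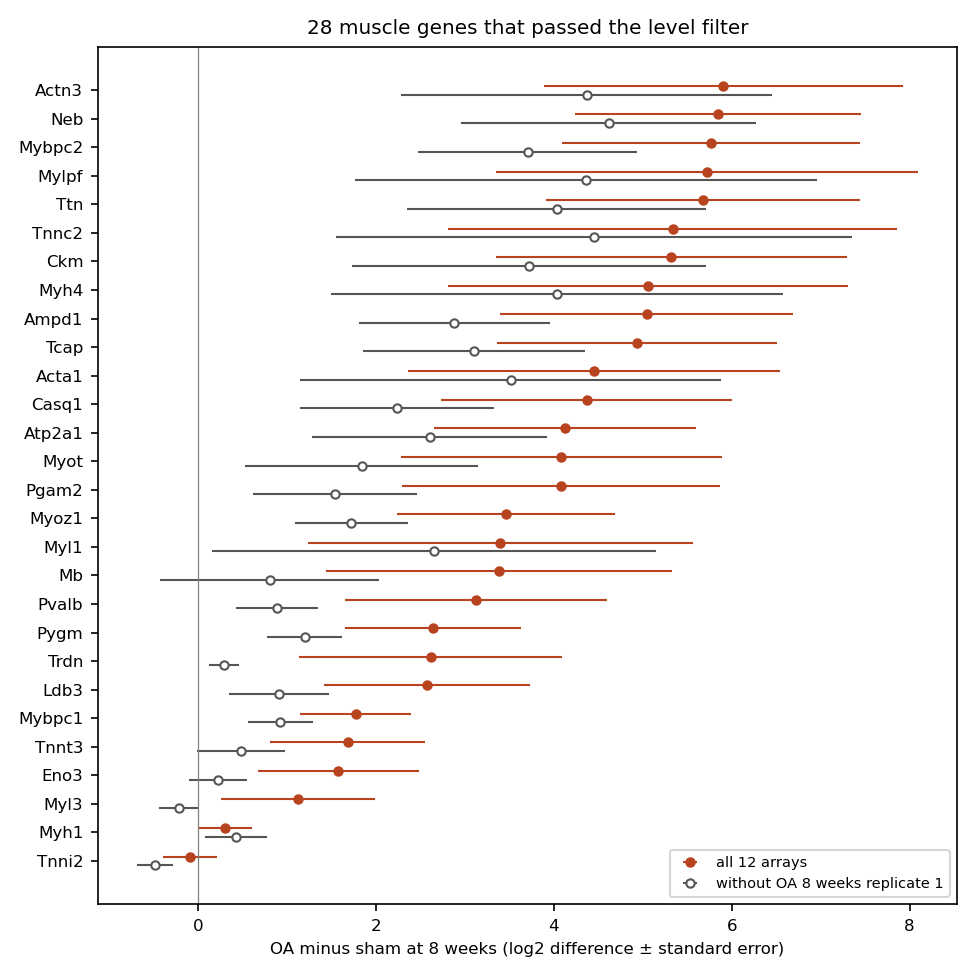
OA minus sham at 8 weeks (log2 difference with its standard error from limma, horizontal axis) for the 28 muscle genes that passed the filter, with all 12 arrays (filled) and without OA 8 weeks replicate 1 (open). The differences run from -0.09 for Tnni2 to 5.90 for Actn3 with all arrays, and without that array their median is 2.04 in place of 4.08.

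Of the fast thick filament genes, Myh4, Mylpf, Myl1 and Mybpc2 had high levels on most OA arrays of 8 weeks, and only Mybpc2 passed, in the paired fit. Myh4, the heavy chain of the fastest rat fibres, had 8-week levels of 15.99, 13.56 and 12.29 in OA against 12.71, 4.08 and 9.88 in sham, and 2-week levels of 10.86, 7.93 and 4.49 in OA against 5.61, 9.61 and 6.31 in sham. All OA arrays were above log2 12 at 8 weeks, but sham replicate 1 lay among them and sham replicate 2 was close to the floor. The difference was 5.06 ± 2.25, adjusted p = 0.228. Mylpf, the fast regulatory light chain, read 14.78, 11.45 and 9.94 in OA against 10.56, 1.48 and 6.95 in sham at 8 weeks (5.72 ± 2.37, adjusted p = 0.199). Its 2-week levels were 7.46, 1.86 and 1.80 in OA against 1.84, 5.38 and 1.82 in sham, so that 1 array of each 2-week group stood above an otherwise dark gene. Myl1, the fast essential light chain, read 15.69, 13.93 and 12.96 in OA against 13.43, 7.74 and 11.21 in sham at 8 weeks (3.40 ± 2.17, adjusted p = 0.401). Its 2-week levels spread as widely, with 12.09, 8.81 and 3.38 in OA against 6.23, 10.93 and 8.47 in sham. Mybpc2, fast myosin-binding protein C, read 13.94, 9.23 and 6.29 in OA against 6.78, 2.93 and 2.46 in sham at 8 weeks and at most 3.15 at 2 weeks, where it read 3.15, 2.18 and 2.09 in OA against 2.16, 2.20 and 2.12 in sham. Its 8-week difference of 5.76 ± 1.67 (adjusted p = 0.0935, paired 0.0106) was among the largest, and sham replicate 1 was above OA replicate 3 by less than 1. A second, dimmer probe set of Mybpc2 read 9.07 in OA 8 weeks replicate 1 and stayed at 2.54 or less on every other array.

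The other heavy chain genes did not share 1 pattern. Myh2, the heavy chain of oxidative fast fibres, was above log2 4 on only 2 arrays and was not tested. It read 14.36, 9.04 and 3.83 in OA against 3.30, 2.78 and 2.79 in sham at 8 weeks, with all OA arrays above all sham arrays, and lay between 2.61 and 2.78 at 2 weeks. Myh1, another fast heavy chain gene, was at 13.49 to 14.91 on all 12 arrays (0.30 ± 0.30, adjusted p = 0.619), and its 4 other probe sets were also bright and flat, between 11.93 and 14.07. A probe set annotated to Myh2, Myh1 and Myh8 together, which the choice of members left out, read 15.04, 10.69 and 5.49 in OA against 9.89, 3.77 and 4.37 in sham at 8 weeks. The annotated Myh1 probe sets therefore did not follow the pattern of this shared probe set. The 3 fast heavy chain genes lie side by side on chromosome 10 of GRCr8, from 52355739 to 52445296, and are close paralogs, so the annotation of single probe sets is uncertain here.

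Of the slow thick filament genes, only Mybpc1 and Myl3 were measured above log2 4. Mybpc1, slow myosin-binding protein C, read 11.97, 9.18 and 9.68 in OA against 9.26, 8.01 and 8.24 in sham at 8 weeks and 8.96, 8.61 and 8.09 in OA against 8.58, 8.44 and 8.54 in sham at 2 weeks (1.77 ± 0.62, adjusted p = 0.145, paired 0.0337). Myl3, the slow essential light chain, read 8.69, 4.91 and 4.45 in OA against 5.27, 4.45 and 4.97 in sham at 8 weeks (1.12 ± 0.87, adjusted p = 0.5) and 5.79, 5.72 and 5.62 in OA against 5.70, 5.70 and 5.62 in sham at 2 weeks. For both genes OA 8 weeks replicate 1 was the highest array, and without it the difference of Myl3 was -0.22. Myl2, the slow regulatory light chain, read 2.05, 2.09 and 2.03 in OA against 2.04, 2.004 and 2.04 in sham at 8 weeks and 2.24, 2.31 and 2.22 in OA against 2.28, 2.28 and 2.25 in sham at 2 weeks. Myh7, the slow heavy chain, read 2.45, 2.53 and 2.48 in OA against 2.48, 2.45 and 2.48 in sham at 8 weeks and 2.41, 2.49 and 2.37 in OA against 2.46, 2.46 and 2.39 in sham at 2 weeks. Neither Myl2 nor Myh7 was above log2 4 on any array, OA 8 weeks replicate 1 included.

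In the thin filament, Neb and Acta1 were highest in OA replicate 1 and lowest in sham replicate 2 at 8 weeks, as were Myh4, Mylpf and Myl1. Neb, the giant ruler protein of the thin filament, read 14.14, 11.41 and 9.49 in OA against 9.48, 2.82 and 5.21 in sham at 8 weeks and 6.04, 3.52 and 3.16 in OA against 3.24, 3.38 and 3.21 in sham at 2 weeks. Its OA arrays lay above its sham arrays at 8 weeks, but OA replicate 3 exceeded sham replicate 1 by only the second decimal. The difference of 5.84 ± 1.61 had the smallest adjusted p of the 28 genes in the fit without pairs (0.0786 for Neb, paired 0.029). A second probe set of Neb was above log2 4 in OA 8 weeks replicate 1 alone, at 8.64, and the last one on no array. Acta1, skeletal muscle actin, read 15.68, 13.49 and 12.26 in OA against 12.87, 5.14 and 10.07 in sham at 8 weeks (4.45 ± 2.09, adjusted p = 0.253). At 2 weeks Acta1 read 11.18, 7.78 and 4.21 in OA against 6.85, 9.65 and 7.44 in sham, so the groups overlapped at both times.

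Troponin, the calcium switch of the thin filament, was measured through its fast and slow subunits. Tnnc2, fast troponin C, read 16.08, 14.16 and 12.72 in OA against 13.35, 3.92 and 9.69 in sham at 8 weeks (5.33 ± 2.52, adjusted p = 0.255). At 2 weeks it read 11.06, 6.26 and 2.77 in OA against 4.12, 8.37 and 6.22 in sham, again with the widest gaps inside the groups. Tnnt3, fast troponin T, was bright on all arrays, with 15.19, 12.07 and 11.11 in OA against 12.09, 10.39 and 10.82 in sham at 8 weeks (1.69 ± 0.87, adjusted p = 0.298) and 11.40, 10.50 and 10.70 in OA against 10.53, 10.68 and 10.98 in sham at 2 weeks. Only OA 8 weeks replicate 1 stood clear of the other arrays for Tnnt3. A second probe set of Tnnt3 was dark on all arrays, between 2.50 and 2.66. Tnni2, fast troponin I, was nearly level, with 14.88, 13.58 and 13.78 in OA against 14.36, 13.85 and 14.29 in sham at 8 weeks and 13.99, 13.76 and 14.01 in OA against 13.66, 14.002 and 14.26 in sham at 2 weeks (-0.09 ± 0.31, adjusted p = 0.911). Among the fast partners it was the only one whose 8-week mean was not higher in OA, and the sign of this difference turned when OA replicate 2, OA replicate 3 or sham replicate 1 of 8 weeks was left out (0.16, 0.06 and 0.01 for Tnni2). The slow subunits stayed under log2 4 on every array. Tnnt1 read 2.49, 2.56 and 2.50 in OA against 2.51, 2.48 and 2.51 in sham at 8 weeks and 2.51, 2.60 and 2.47 in OA against 2.63, 2.57 and 2.49 in sham at 2 weeks. Tnni1 read 2.05, 3.54 and 3.66 in OA against 3.28, 3.37 and 3.38 in sham at 8 weeks and 1.84, 1.88 and 1.95 in OA against 1.72, 1.86 and 1.85 in sham at 2 weeks. Tnnc1, which heart muscle shares, read 2.43, 2.28 and 2.23 in OA against 2.24, 3.59 and 2.26 in sham at 8 weeks and 2.25, 2.31 and 2.24 in OA against 2.29, 2.28 and 2.26 in sham at 2 weeks.

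Genes of the Z-disc and of the scaffold that spans the sarcomere held the largest 8-week difference among the genes tested. Actn3, the fast fibre alpha-actinin that crosslinks actin at the Z-disc, differed by 5.90 ± 2.02, the largest positive value of all 15934 probe sets, and passed in the paired fit (adjusted p = 0.138 for Actn3, paired 0.0439). It read 15.02, 11.11 and 9.74 in OA against 10.38, 2.998 and 4.78 in sham at 8 weeks and 7.08, 2.30 and 2.20 in OA against 2.28, 2.97 and 2.25 in sham at 2 weeks. Ttn, the elastic protein that links Z-disc and thick filament, read 13.93, 10.18 and 7.85 in OA against 8.92, 2.99 and 3.02 in sham at 8 weeks (5.67 ± 1.76, adjusted p = 0.11, paired 0.0131) and 4.68, 2.24 and 2.15 in OA against 2.21, 2.22 and 2.24 in sham at 2 weeks. Tcap, which caps titin at the Z-disc, read 14.13, 9.70 and 7.56 in OA against 8.31, 3.20 and 5.09 in sham at 8 weeks (4.93 ± 1.57, adjusted p = 0.116, paired 0.026) and 4.18, 3.09 and 2.85 in OA against 2.96, 2.99 and 2.94 in sham at 2 weeks. In Actn3, Ttn and Tcap, sham replicate 1 lay between OA replicates 2 and 3, and the other sham arrays were lower. Myoz1, a calcineurin-binding Z-disc protein of fast fibres, read 14.44, 10.17 and 8.25 in OA against 8.74, 6.70 and 7.04 in sham at 8 weeks (3.46 ± 1.23, adjusted p = 0.148), and all its 2-week levels lay between 2.72 and 2.96. Ldb3 and Myot, both Z-disc proteins, differed by 2.57 ± 1.16 and 4.08 ± 1.80 at 8 weeks, and Myot passed in the paired fit. Actn2, the alpha-actinin of all fibres and the heart, Des, the intermediate filament desmin, and Smpx were above log2 4 in OA 8 weeks replicate 1 alone, at 10.16, 8.76 and 4.998. On the other arrays Actn2 did not exceed 2.31, Des 3.63 and Smpx 2.23.

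Of the calcium handling genes, the fast fibre pump Atp2a1 was above log2 4 on all 6 arrays of 8 weeks, the buffer Casq1 on 5 and the buffer Pvalb on 4, whereas the release channel Ryr1 and the voltage sensor Cacna1s were on 1. Atp2a1, the SERCA pump of fast fibres, read 14.80, 11.06 and 9.42 in OA against 10.64, 4.94 and 7.33 in sham at 8 weeks (4.12 ± 1.48, adjusted p = 0.151, paired 0.0311). At 2 weeks it read 3.15, 2.05 and 2.01 in OA against 2.05, 2.10 and 1.995 in sham, so every 8-week array of either surgery was above every 2-week array. Casq1, the calcium buffer inside the reticulum of fast fibres, read 13.27, 7.73 and 6.05 in OA against 7.07, 2.82 and 4.05 in sham at 8 weeks (4.37 ± 1.64, adjusted p = 0.164, paired 0.0346) and 3.09, 1.51 and 1.42 in OA against 1.47, 1.51 and 1.49 in sham at 2 weeks. Pvalb, parvalbumin, the soluble calcium buffer of fast fibres, read 11.48, 5.46 and 4.06 in OA against 4.78, 3.41 and 3.43 in sham at 8 weeks (3.13 ± 1.47, adjusted p = 0.254). Ryr1, the calcium release channel, reached 11.06 and Cacna1s, the voltage sensor, 6.10 in OA 8 weeks replicate 1, and neither exceeded 3.00 elsewhere. Trdn, triadin, which anchors calsequestrin to that channel, read 11.31 in OA 8 weeks replicate 1 and 3.91 to 4.60 on the 11 other arrays (2.61 ± 1.48, adjusted p = 0.341). A dimmer probe set of Trdn read 13.19, 7.61 and 4.12 in OA against 4.15, 2.02 and 2.04 in sham at 8 weeks.

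All 6 energy and oxygen genes had their highest level in OA 8 weeks replicate 1, and they differed in how many arrays lay above log2 4, from 3 for Mb to 12 for Pygm and Eno3. Ckm, muscle creatine kinase, which regenerates ATP from phosphocreatine, read 15.96, 11.88 and 10.44 in OA against 11.21, 3.003 and 8.10 in sham at 8 weeks (5.32 ± 1.97, adjusted p = 0.161) and 6.93, 4.11 and 4.02 in OA against 4.08, 5.68 and 4.06 in sham at 2 weeks. Ampd1, the muscle AMP deaminase, read 13.96, 8.95 and 6.001 in OA against 6.88, 3.58 and 3.32 in sham at 8 weeks (5.04 ± 1.64, adjusted p = 0.123, paired 0.0234) and 2.53, 2.43 and 2.34 in OA against 2.39, 2.38 and 2.35 in sham at 2 weeks. In both genes sham replicate 1 exceeded OA replicate 3, which kept the groups from separating. Pgam2, the muscle phosphoglycerate mutase of glycolysis, differed by 4.08 ± 1.79 and Mb, the oxygen carrier myoglobin, by 3.39 ± 1.94. Mb read 12.68, 7.05 and 2.81 in OA against 6.32, 3.09 and 2.96 in sham at 8 weeks, where OA replicate 3 was the lowest array of the 6. Pygm, muscle glycogen phosphorylase (2.64 ± 0.99), and Eno3, the muscle enolase (1.58 ± 0.90), were above log2 6 on all 12 arrays. A dimmer probe set of Pygm read 12.32, 6.44 and 3.02 in OA against 5.79, 2.45 and 2.65 in sham at 8 weeks and at most 2.86 at 2 weeks. The last Pygm probe set was above log2 4 in OA 8 weeks replicate 1 alone, at 8.67. Eno3 was highest in OA 8 weeks replicate 1, at 15.19, and lay between 10.48 and 11.57 on the others.

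The fast fibre genes had the larger differences between OA and sham at 8 weeks, and 5 of the 7 slow genes were at the floor. The 14 fast members had a median OA minus sham difference of 4.25 on the log2 scale (-0.09 to 6.12), and the 7 slow members one of 0.01 (-0.39 to 1.77). A difference of at least 1 was seen for 12 of 14 fast and 2 of 7 slow members. Since 5 of the 7 slow genes were under log2 4 on every array, a difference between groups was not measurable for them. Without OA 8 weeks replicate 1 the medians were 2.63 for fast and 0.03 for slow members. In 2 of the 7 pairs of a fast and a slow partner the slow one was above log2 4, and in both the fast partner had the larger 8-week difference. Myosin-binding protein C differed by 5.76 for fast Mybpc2 and 1.77 for slow Mybpc1, and the essential light chains by 3.40 for fast Myl1 and 1.12 for slow Myl3. The starting levels differed too. At 2 weeks Mybpc1 read at least 8.09 and Myl3 at least 5.62, whereas Mybpc2 read at most 3.15 and Myl1 3.38 to 12.09. Fast genes above log2 10 on all 12 arrays also had smaller differences (Tnnt3 1.69, Myh1 0.30, Tnni2 -0.09). Myh4, with a lowest level of 4.08, differed by 5.06. The part of the starting level in these differences was not tested. In the other 5 pairs the slow gene had no measurable level, and the fast difference was 1.69 for Tnnt3, 5.33 for Tnnc2, -0.09 for Tnni2, 5.72 for Mylpf and 5.06 for Myh4. For troponin I the order of the partners turned without OA 8 weeks replicate 1, with -0.48 for fast Tnni2 and 0.25 for slow Tnni1, a gene under log2 4. Members were chosen with results of these data known, so no test of fast against slow is given.

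**Figure D3:**
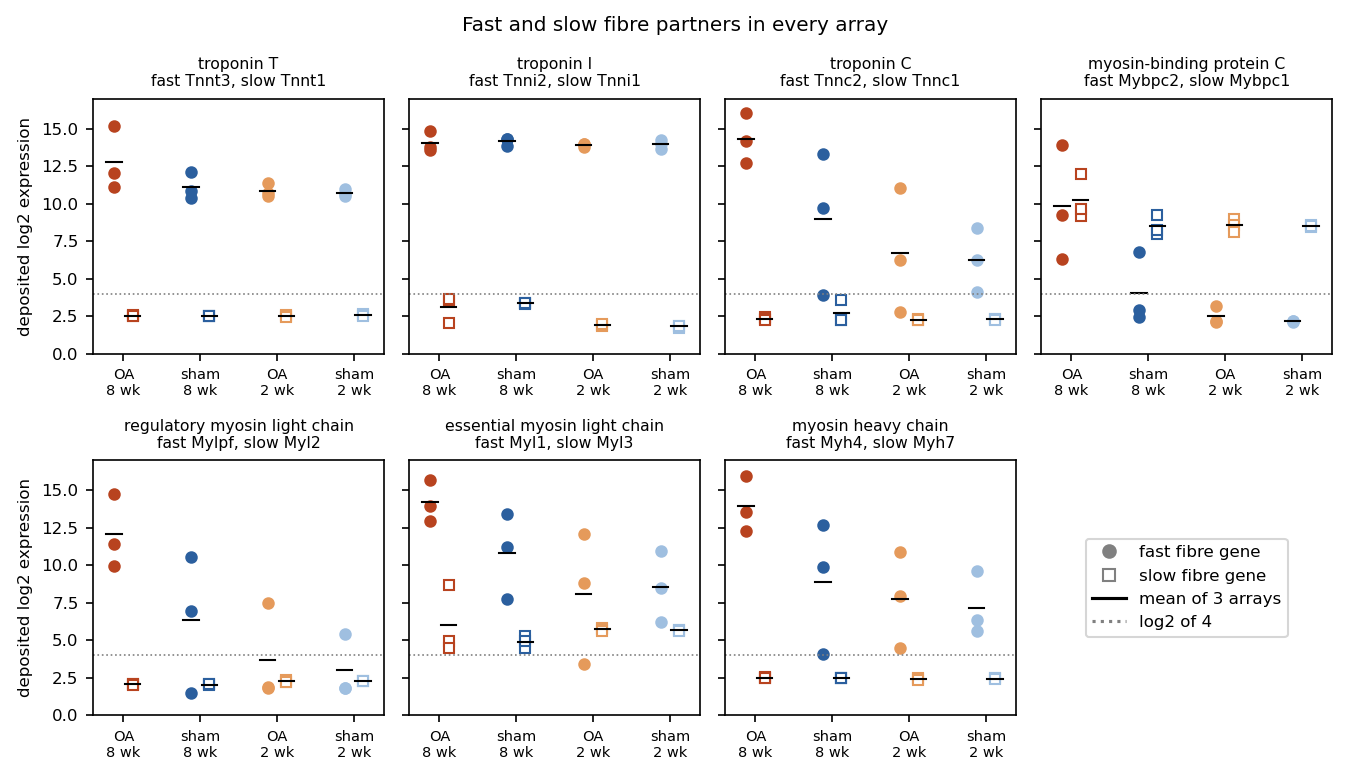
Deposited log2 level of 7 fast fibre genes (filled circles) and their slow fibre partners (open squares) on every array, by group, with group means as bars and log2 4 dotted. In 5 pairs the slow partner lies under log2 4 on all 12 arrays, and in 5 pairs (troponin C, myosin-binding protein C, both light chains and heavy chain) the fast partner spreads over more than 11 log2 units.

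Per array, the fast genes varied widely, and so did the 18 members on neither fibre list, while 5 of the 7 slow genes stayed at the floor. The median over the fast genes of the level minus the gene's own 12-array mean was 8.03, 4.15 and 2.00 in OA against 2.76, -1.53 and 0.01 in sham at 8 weeks. At 2 weeks it was -0.48, -2.02 and -3.08 in OA against -3.03, -1.23 and -2.66 in sham. The same median over the 18 members on neither list was 7.56, 2.54 and 0.09 in OA against 1.51, -1.01 and -0.50 in sham at 8 weeks, and -0.74, -1.61 and -1.60 in OA against -1.65, -1.63 and -1.69 in sham at 2 weeks. That over the slow genes stayed between -0.11 and 0.04 on all arrays, although Mybpc1 and Myl3 ranged over 3.96 and 4.24. Fast members above log2 4 numbered 14, 14 and 13 in OA against 13, 7 and 11 in sham at 8 weeks. The slow members above log2 4 were 2 on every array. The difference between OA and sham at 8 weeks of the fast minus slow median was 4.23, with a pooled SD of 1.68 within groups. It was 2.60 without OA 8 weeks replicate 1 and 5.59 without sham 8 weeks replicate 1.

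**Figure D4:**
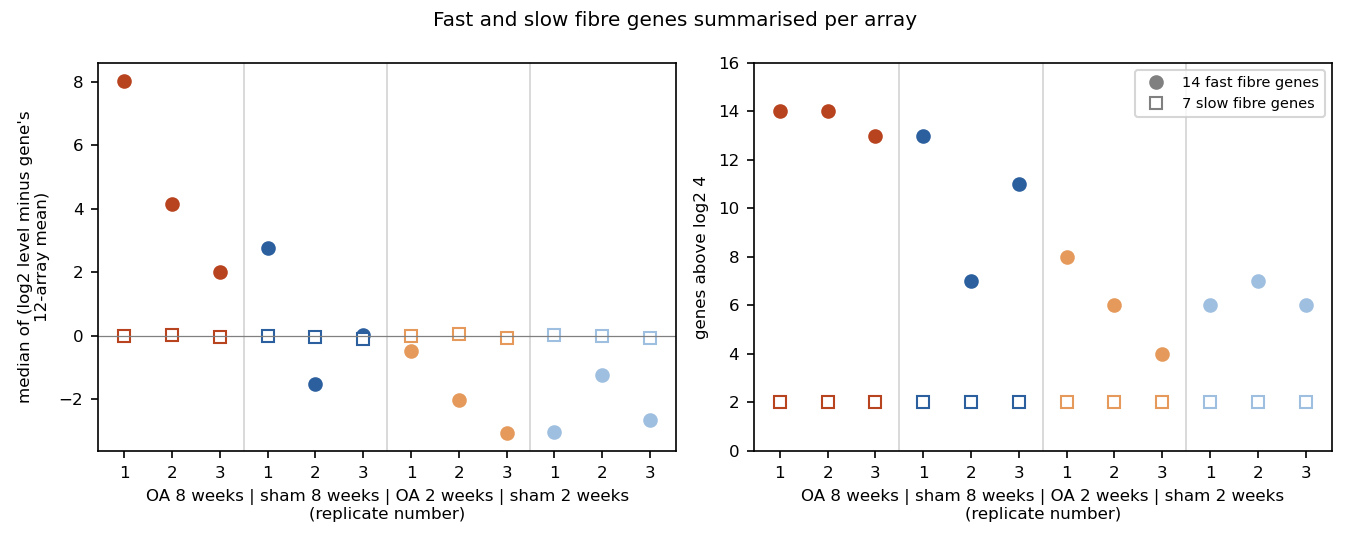
Left, the median over 14 fast (circles) and 7 slow fibre genes (squares) of the log2 level minus the gene's 12-array mean, per array. Right, how many of them were above log2 4; the slow count is 2 on all 12 arrays, while the fast count reaches 14 in OA and 13 in sham at 8 weeks and does not exceed 8 at 2 weeks.

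At 2 weeks no difference between OA and sham was detected in these genes. Of the 28 genes tested, 0 passed with limma, as did 0% of all kept probe sets, and 0 had an unadjusted p under 0.05, against 1.69%. For genes that were flat at 2 weeks, the shared spread came mainly from the 8-week arrays. Myoz1, for example, had a standard error of 1.23 with 2-week SDs of 0.018 in OA and 0.12 in sham. Small differences in such genes could therefore not pass at 2 weeks. In the paired fit 0 passed too, as did 0% of all kept probe sets. Their median difference was 0.13 on the log2 scale, against -0.01 over all kept probe sets. Of the 39 means 20 were higher in OA, against 10166 of 31042 probe sets without controls. Ldb3 was the only member whose 3 OA arrays were all above the 3 sham arrays, against 1.91% of all kept probe sets, with a difference of 0.44 ± 1.16. Its lowest OA level was 4.53 and its highest sham level 4.51, while sham replicate 1 read 3.52, under log2 4. A dimmer Ldb3 probe set overlapped, with 3.59, 3.64 and 3.56 in OA against 3.63, 3.62 and 3.55 in sham. The largest difference was that of Actn3 (1.37 ± 2.02), which rested on 7.08 in OA replicate 1. In all, 14 members were at least 1 above their lowest 2-week array in OA replicate 1, 6 each in OA replicate 2 and sham replicate 2, 5 each in sham replicates 1 and 3 and 1 in OA replicate 3.

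More muscle genes were called higher at 8 than at 2 weeks within OA than the background share, and within sham the count was not above that share. Within OA, 17 of the 28 genes were higher at 8 than at 2 weeks and 0 were lower, against 34.1% of all kept probe sets called in either direction and 21.7% called higher. The median of the 28 genes was 6.09 on the log2 scale, against 0.09 over all kept probe sets. Some of the 28 passed the filter only through arrays of 8 weeks, which favours a rise over time in both the count and the median. Atp2a1 and Myoz1, for example, did not exceed 3.15 and 2.96 on any 2-week array. Atp2a1 rose by 9.36 ± 1.48 (adjusted p = 0.000757), the largest positive value of all kept probe sets. Myoz1 rose by 8.22 ± 1.23 (adjusted p = 0.000532) and Mylpf by 8.35 ± 2.37 (adjusted p = 0.0208). Neb rose by 7.44 ± 1.61, Ttn by 7.63 ± 1.76 and Ckm by 7.74 ± 1.97. By role, those that rose were 2 of 7 thick filament, 3 of 5 thin filament, 5 of 6 Z-disc, 3 of 4 calcium and 4 of 6 energy genes that passed the filter. Among the fibre lists, 8 of 13 fast and 0 of 2 slow genes tested rose. Myh4 (6.19 ± 2.25, adjusted p = 0.0574) and Myl1 (6.10 ± 2.17, adjusted p = 0.053), which had high arrays at 2 weeks too, did not pass. Without OA 8 weeks replicate 1, 14 genes were called higher and Myl3 lower, against 30.2% of all kept probe sets called, with Atp2a1 at 7.84 and Myl3 at -1.03.

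Within sham, Atp2a1 rose by 5.59 ± 1.48 (adjusted p = 0.0228) and Myoz1 by 4.67 ± 1.23 (adjusted p = 0.0225). They were the 2 of 28 genes called, against 18.7% of all kept probe sets called and 12.5% called higher, so the count was not above the background. Of the 28 differences 23 were above 0, against 10167 of 15934 kept probe sets. Atp2a1 again had the largest positive value of all kept probe sets. The median of the 28 genes was 1.96, against 0.08 over all kept probe sets, with Actn3 at 3.56 ± 2.02 and Mylpf at 3.32 ± 2.37 among those that did not pass. Sham 8 weeks replicate 2 had 13 members above log2 4, against 13, 15 and 14 on the sham arrays of 2 weeks. Without sham 8 weeks replicate 1, or without any single sham 2-week array, 0 of the 28 were called, and without sham 8 weeks replicate 3 it was 1. Without OA 8 weeks replicate 1, whose spread enters the shared estimate, 5 were called, against 19.8% of all kept probe sets. They were Atp2a1, Myoz1, Ldb3 and Pvalb higher and Myl3 lower. Probe sets under log2 4 on all arrays had a median 8 minus 2 weeks difference of -0.02 (5th to 95th percentile -0.34 to 0.40). This choice leaves out every probe set that rose above log2 4 at 8 weeks, so the value cannot show such steps. The sources used here do not say whether the 2-week and 8-week arrays were processed together, so time and processing cannot be told apart.

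**Figure D5:**
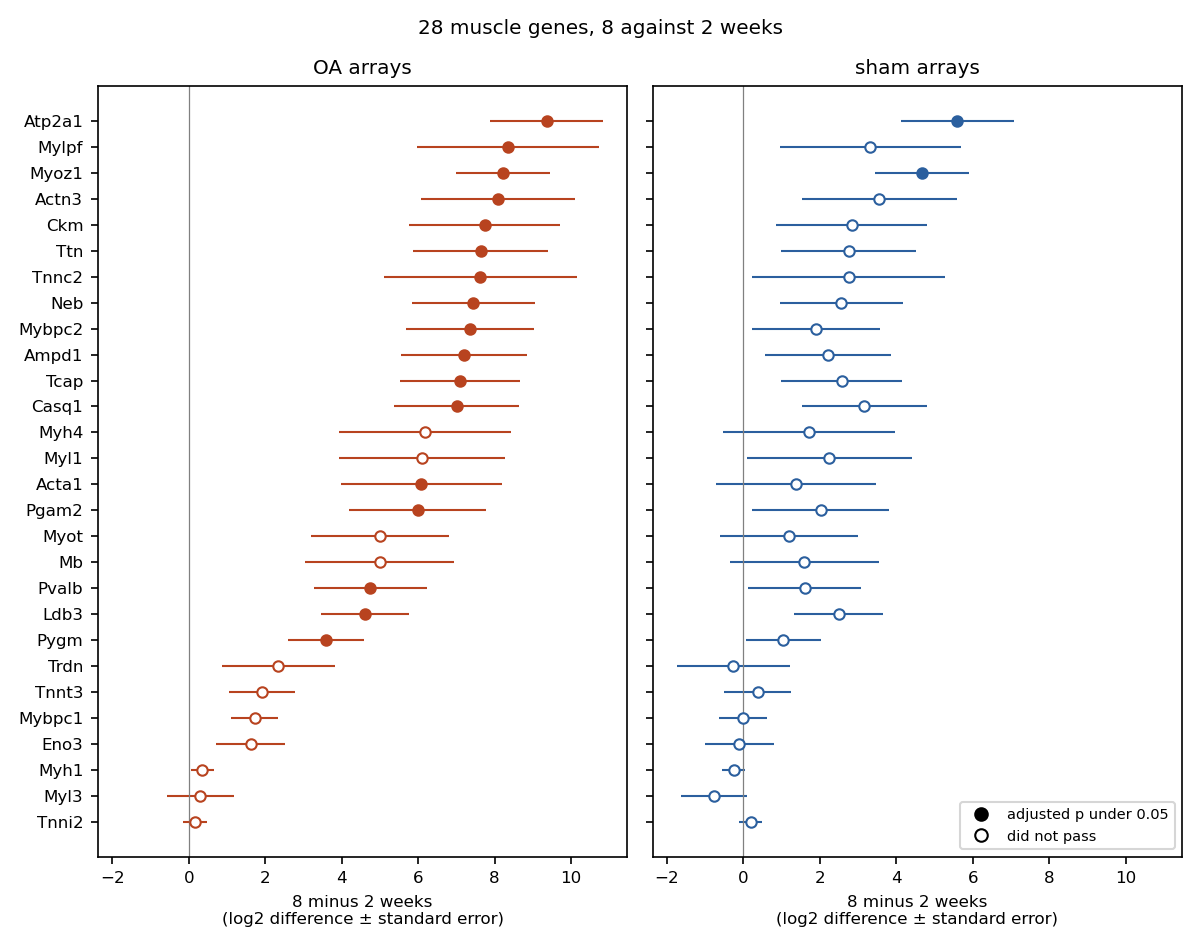
8 minus 2 weeks (log2 difference with its standard error from limma) of the 28 muscle genes that passed the filter, in OA arrays (left) and in sham arrays (right), with filled points for an adjusted p under 0.05. In OA 17 points are filled, led by Atp2a1 at 9.36, and in sham 2, Atp2a1 at 5.59 and Myoz1 at 4.67.

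Whether the OA minus sham difference itself changed between 2 and 8 weeks was tested as an interaction. It was larger at 8 weeks for 27 of the 28 genes, against 8252 of 15934 kept probe sets. The median over the 28 genes was 3.83 on the log2 scale, against 0.01 over all kept probe sets. With limma 0 of the 28 passed, against 0.138% of all kept probe sets, and 1, Mybpc2, had an unadjusted p under 0.05, against 11% of all kept probe sets. In the paired fit 0 passed as well, against 0.42% of all kept probe sets. Mybpc2 also had the largest estimate among the 28 probe sets used for members, 5.45 ± 2.37 (adjusted p = 0.437). The dimmer Trdn probe set, which was not used for that gene, had the largest estimate of all kept probe sets, 5.53.

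Skeletal muscle genes outside the 39 members showed the same brightest array. Of 67 such genes listed, 60 were measured, 47 of them were highest in OA 8 weeks replicate 1, and 25 passed the filter. Their mean level per array was 8.50, 5.01 and 4.69 in OA against 4.75, 4.54 and 4.50 in sham at 8 weeks. Of the 25, 0 were higher and 1 was lower in OA at 8 weeks, with a median of 1.15, against 3.46% of all kept probe sets called and 1.51% called higher. The lower one was Tpm1, a tropomyosin gene that many tissues use (-0.56 ± 0.13, adjusted p = 0.0449), and with 1 array left out in turn it stayed called only without sham 8 weeks replicate 1. The call also ended with quantile normalization added and with array medians equalized. In the paired fit 2 were called, Tpm1 lower (adjusted p = 0.0437) and Myom2, an M-band protein, higher (4.50 ± 0.95, adjusted p = 0.0487). Asb5 (3.72 ± 1.01, adjusted p = 0.0763), Klhl40, a stabilizer of thin filaments (1.18 ± 0.36, adjusted p = 0.103), and Tpm3 (-0.46 ± 0.15, adjusted p = 0.124) did not pass in the fit without pairs. Within OA, 11 of the 25 were higher and 1 was lower at 8 than at 2 weeks, against 34.1% of all kept probe sets called and 21.7% called higher.

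Heart muscle and developmental muscle genes were mostly dark, and smooth muscle genes were not. Of 9 heart muscle markers measured, 0 passed the filter and 8 were above log2 4 on no array, Myh6, Tnnt2 and Tnni3 included. Of 13 measured genes of muscle stem cells, developing muscle and the nerve-muscle junction, 1 passed the filter and 11 were above log2 4 on no array. It was Myog, a MyoD family factor, which differed by 0.12 ± 0.09 between OA and sham at 8 weeks (adjusted p = 0.473). Myh3 and Myh8, the myosin heavy chains of embryonic and newborn muscle, did not exceed 3.9 on any array. Of 10 smooth muscle markers measured, 6 passed the filter and 4 were above log2 4 on no array, with Mylk between 10.83 and 12.13 and Tagln between 4.63 and 8.31 on the 12 arrays. Of the 6 tested, 0 were called with limma at 8 weeks, and 0 had an unadjusted p under 0.05.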

How the data were processed

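Gene expression was measured in 12 samples of knee articular cartilage, 3 per group. The deposited values are log2 levels of 31099 probe sets, and per the submitters' processing notes they were made with GCRMA, whose version and settings are not given in the sources used here. Names came from the platform's annotation and RefSeq's GRCr8 gene table (20832 probe sets with 1 symbol, 436 with several, 9831 with none). Without 57 control probe sets, 15934 with log2 above 4 on at least 3 arrays were kept and 15108 left out. limma 3.58.1 in R 4.3.3 estimated the 4 group means of each kept probe set (empirical Bayes, 8 residual and 1.94 prior degrees of freedom). Calls needed p-values under 0.05 after Benjamini-Hochberg adjustment across all 15934. Errors beside differences are standard errors, and those beside means are SDs (n = 3). Array values give no read depth, and the number of arrays limits the precision. Plots were drawn with matplotlib 3.10.9 and tables made with pandas 2.3.3 under Python 3.11.15, and the fit was tested on simulated data.

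The members and gene lists were chosen with earlier results of these data known. Values per array were given for the 7 fast and slow pairs and, in each role, for the 2 genes with the smallest unadjusted p at 8 weeks. In other lists up to 4 genes were named by that p. Actn3, Myoz1, Myot, Myom2, the marker genes, Myh1, Myh2, Pvalb, Mb, the heart and developmental genes, Myog and all genes of the closing section were chosen after their values were seen. Replicate numbers paired OA with sham within each time, since all 3 same-numbered pairs had a correlation of deviations over 0.1 at 2 weeks (0.333 to 0.527) and at 8 weeks (0.119 to 0.239); other numbers ran from -0.381 to 0.069 and from -0.266 to 0.142. This rests on the data, not on the labels. Without the muscle genes the number 3 pair of 8 weeks was under 0.1, at 0.089. They did not pair the times, where 1 of 3 pairs in OA and 0 of 3 in sham were over 0.1. A fit with the number as a block within each time (4 residual degrees of freedom), chosen after seeing the data, is called the paired fit. Alternatives changed the filter, scaling, array weights, variance trend, replicate block, arrays used and probe set per gene.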

Additional observations from a re-analysis of the deposited data

How the results depend on the processing

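The counts of members called at 2 weeks (0) and for the interaction (0) were the same under every alternative run. At 8 weeks the count of 0 for OA minus sham became 10 with the replicate block within each time, 6 with that block and both 8-week number 1 arrays left out, 3 with array weights, 4 with the replicate block across times and 9 with both 8-week number 1 arrays left out, all higher in OA, and with single arrays left out it ranged from 0 to 6. With the replicate block across times, Neb (adjusted p = 0.0358), Ttn (0.0417) and Mybpc2 (0.049) passed, and with array weights the same 3 genes did (Neb 0.0287, Ttn 0.0357, Mybpc2 0.0394). For 8 minus 2 weeks within sham the count of 2 became 4 without the filter or with only the 6 arrays compared and 5 without both number 1 arrays, stayed 2 with the replicate block across times, and ranged from 0 to 5 with single arrays left out. Within OA the count of 17 was 13 to 20 (20 with the replicate block across times), and 12 to 19 with single arrays left out. The 1 call among the other skeletal muscle genes became 0 without the filter, with quantile normalization, with equalized medians, with only the 6 arrays compared or with the mean over probe sets, 2 without both number 1 arrays or with the replicate block within each time, 3 with both of these or with array weights, stayed 1 with the replicate block across times, and ranged from 0 to 2 with single arrays left out. The fast minus slow difference of 4.23 ranged from 2.60 to 5.59 with single arrays left out. Of 407 values of 17 named genes for OA minus sham at 8 weeks under alternatives, 366 kept their direction and side of the threshold, 35 passed newly and 6 reversed. None was called in the fit without pairs, so none could lose a call. Those that reversed were Tnni2, which ranged from -0.485 to 0.161 with single arrays left out (above 0 without OA 8 weeks replicate 2 or 3 or sham 8 weeks replicate 1), and Myl3, which ranged from -0.215 to 1.90 (below 0 without OA 8 weeks replicate 1) and was -0.0302 without both number 1 arrays, with or without the block within each time. Values under log2 4 limit what can be compared, since differences there are not exact. Shares of all kept probe sets are not given for most alternatives, so the counts of members called under them have no background. The causes were not tested.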

Other observations

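Some muscle gene probe sets moved by a step between the times on every array, in place of following the order of the 8-week arrays. A probe set annotated to Myh7 and Myh6 together read 6.87, 7.44 and 6.78 in OA and 7.02, 6.87 and 6.24 in sham at 8 weeks, and 2.47, 2.58 and 2.43 in OA and 2.52, 3.57 and 2.47 in sham at 2 weeks, while the probe sets of Myh7 or of Myh6 alone stayed under log2 4 on all arrays. Cox7a1, a muscle and heart subunit of cytochrome oxidase, was higher at 8 than at 2 weeks by 1.79 ± 0.18 within OA (adjusted p = 3.68e-05) and by 1.46 ± 0.18 within sham (adjusted p = 0.000201), and by 0.20 ± 0.18 in OA over sham at 8 weeks. Myog, the only gene of its list that passed the filter, was higher at 8 weeks by 1.11 ± 0.09 within OA and by 0.99 ± 0.09 within sham in limma, with levels from 4.0 to 4.3 at 8 weeks and near 3.0 at 2 weeks. Tmod1, which caps thin filaments, read 9.9, 6.0 and 6.0 in OA and 5.7, 5.9 and 6.0 in sham at 8 weeks, so that all arrays but OA 8 weeks replicate 1 were alike at that time. No explanation of these steps was tested.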
